A study of Bos taurus with 38 samples.

Results

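The second diet period of a crossover was compared with the first in the liver of 19 dairy cows. All 38 RNA-Seq libraries of the series entered the comparison, 2 libraries from each of 9 Holstein and 10 Jersey cows, so that every cow was its own control. Each cow was biopsied at the end of period 1 and again at the end of period 2. Each ate the control (C) diet, low in concentrate, in one period and the high concentrate (HC) diet in the other. C came first in 4 Holsteins and 5 Jerseys, and HC came first in 5 Holsteins and 5 Jerseys. Period, order and diet are known for every library, with the period taken from the study's description of its cows. The cows had been chosen for high or low residual feed intake (RFI), the difference between actual and predicted feed intake. RFI group and parity are fixed within a cow and drop out of a comparison made inside cows.

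In a crossover the period stands for everything that differed between the sampling times apart from the diet. Here, by the study's methods, these include the later stage of lactation and a second biopsy of the same liver. They also include a longer and more variable adaptation before the first biopsy and a shorter stay in the respiration chamber before the second. A carry-over of the first diet shared by both orders would also be part of the period difference. The cow terms absorb a period by diet term, so none was fitted. All of these cannot be told apart. The liver of a lactating cow makes glucose from propionate and amino acids, oxidises fatty acids from body fat or turns them into ketones, re-esterifies others to triglyceride, makes bile acids from cholesterol and secretes acute phase proteins after injury. Its expression profile is known to shift through lactation and with the supply of starch.

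Of 24616 genes in the deposited counts, 11896 reached 1 CPM, the read pairs of a gene scaled to the library total, in 19 libraries or more, and these held 99.9% of the read pairs on genes. Depth was 17472800 to 24478300 read pairs on genes per library, so that 1 CPM corresponds to 17.5 to 24.5 read pairs. The period 2 library of cow 16, a Holstein, stood apart: 79.9% of its read pairs fell on genes, against 74.9% to 75.9% in the other Holstein libraries of period 2, and 11540 genes reached 1 CPM in it, against 11894 to 12038. After the mean of each breed and period was removed, 15 of 18 Holstein and 11 of 20 Jersey libraries correlated best with the other library of their own cow. The diet was left in these values, and the 2 libraries of a cow were on opposite diets. Both libraries of cow 10 were most like a library of cow 17 and both libraries of cow 17 most like one of cow 10, although the 2 Jerseys had opposite orders of diets. The main results are therefore given with and without these cows. The share of read pairs on genes was 76.3% ± 0.869 (SD, n = 19) in period 1 and 76.1% ± 1.15 in period 2. It and the other 3 library measures compared (depth, genes at 1 CPM, share of the 10 most abundant genes) had adjusted p between 0.321 and 0.648 in exact permutation tests of the order of diets within breeds (two-sided).

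No gene differed between the periods at an adjusted p under 0.05 (0% of 11896; edgeR quasi-likelihood F-test with cow, diet and period, Benjamini-Hochberg adjustment). The smallest adjusted p was 0.298. At an unadjusted p under 0.05 there were 625 genes, 329 higher and 296 lower in period 2, which is 5.25% of the genes tested. This count was 976 (8.20%) without cow 16 and 998 (8.39%) with each library's percentage of assigned read pairs as a further term, both without a gene at an adjusted p under 0.05. In the same fit of the same libraries, diet changed 603 genes (5.07%), 299 higher and 304 lower on HC. DESeq2's Wald test called 2 genes between the periods, both lower in period 2 (ENSBTAG00000031295 and ENSBTAG00000043582), with 576 genes at an unadjusted p under 0.05.

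**Figure D1:**
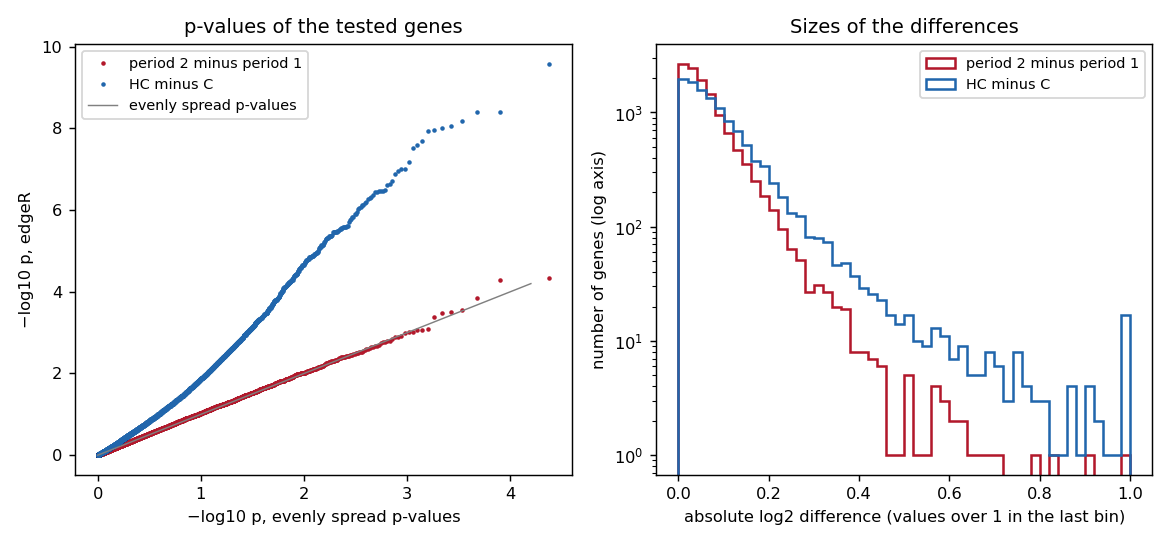
Left, −log10 p of the 11896 genes for period (red) and diet (blue) against the values of evenly spread p-values (grey line); right, the number of genes (log axis) by absolute log2 difference. The period p-values follow the line and the diet p-values leave it, and 26 genes exceeded 0.5 on the log2 scale between periods against 153 between diets.

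The absence of calls went with small differences and narrow intervals. The median absolute difference between periods was 0.048 on the log2 scale, against 0.068 between diets, with a median standard error of 0.067 for both. For 11461 genes (96.3%) the 95% interval of the period difference lay within 0.5 log2 units of 0, and for 11861 (99.7%) within 1. Among the 4391 genes with a mean of at least 20 CPM, the largest absolute period difference was 0.57. Period given diet took a mean of 5.19% of a gene's variance within cows, where 1 of the 19 within-cow degrees of freedom is 5.26%, while diet given period took 10.5%. Differences between cows made up a median of 55.1% of the variance over the 38 libraries. That share includes breed and parity. With 2 libraries per cow, unrelated libraries would also give a large share, so it does not measure how alike the libraries of a cow were.

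The 2 libraries of single cows also differed. These differences hold the diet and the noise of single libraries, which a fit over 19 cows evens out. Their size therefore cannot be set against the period differences above. The root mean square difference between the libraries of a cow was between 0.29 and 0.66 log2 units, with a median of 0.35 over the 19 cows. Between its libraries cow 14 had 1184 genes differing by more than 1 log2 unit, the most of the 19. Cow 16 had 905, cow 5 703, cow 10 564 and cow 15 500, against a median of 203. These 5 cows come from both breeds and both orders. Their 2 libraries were also little alike once the mean of each breed and period was removed. The correlation was -0.0073 in cow 14, 0.17 in cow 16, 0.11 in cow 5, -0.0039 in cow 10 and -0.00029 in cow 15. Cow 17, with 360 genes over 1 log2 unit, had 0.068. The breed averages were 0.37 in Holsteins and 0.27 in Jerseys. The diet was not removed for these correlations. The 2 libraries of a cow were on opposite diets, which can lower the correlation in every cow. Whether these libraries are rightly paired was not tested. No gene moved the same way in all 19 cows. In 17 or more cows, 5 of the 11896 genes were higher and 3 lower in period 2. These counts were not set against those that random signs would give over so many genes.

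The genes with the smallest p in each direction carry only an Ensembl identifier in the sources used here. They are described first because they had the smallest p, and none of them passed in edgeR, while the 2 lower in period 2 passed in DESeq2 (adjusted p = 0.00528 for both). ENSBTAG00000043582 had 0.64, 1.61 and 5.57 CPM (lowest, median and highest of 19) in period 1 and 0.524, 0.803 and 2.62 CPM in period 2. It was lower in period 2 in all 9 C-first cows and in 8 of 10 HC-first cows, although the levels of the periods overlapped. Its log2 difference was -1.0 (SE 0.20, 95% interval -1.42 to -0.59, edgeR adjusted p = 0.298), the largest in size of the 4 genes named here. Alone, the Holsteins gave -1.18 and the Jerseys -0.86.

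ENSBTAG00000003826 was the gene with the smallest p among those higher in period 2. It had 0.629, 1.49 and 2.27 CPM in period 1 and 0.633, 2.03 and 4.69 CPM in period 2, and was higher in period 2 in 17 of 19 cows, 9 of 9 with C first and 8 of 10 with HC first. The exceptions were the Jerseys 4 and 10. The log2 difference was +0.57 (SE 0.13, edgeR adjusted p = 0.567). It was +0.83 for Holstein and +0.32 for Jersey cows. ENSBTAG00000026278 went from 0.629, 1.10 and 2.61 CPM to 0.961, 2.09 and 6.54 CPM and was higher in 15 of 19 cows, at +0.72 (SE 0.17, edgeR adjusted p = 0.673). These 3 genes lay near 1 CPM, the limit of the filter, in most libraries.

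ENSBTAG00000031295 was well expressed and had the smallest p of all. It had 133, 234 and 479 CPM in period 1 and 115, 226 and 345 CPM in period 2. It was lower in period 2 in all 9 C-first cows, by a mean of -0.69 ± 0.20 log2 units (SD), and higher in 8 of 10 HC-first cows, by a mean of 0.19 ± 0.21. The levels therefore followed the diet in both orders, with a fall on HC of 0.44 on the log2 scale (edgeR adjusted p = 1.72e-05). What the period added was the unequal size of the moves in the 2 orders, a log2 difference of -0.25 (SE 0.049, edgeR adjusted p = 0.298). In the exact permutation test of the order within breeds its p was 3.15e-05, the smallest the 31752 arrangements can give and not adjusted for the number of genes.

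Symbols could be given to 77 genes, those that the study lists by name and identifier as differing between RFI groups in these same libraries, 61 in the Holsteins and 16 in the Jerseys. They are therefore a selection made for another contrast, and 73 of them were tested. None differed between periods at an adjusted p under 0.05 (smallest 0.888, edgeR), and 8 (10.96%) had an unadjusted p under 0.05 against 5.25% of all genes tested. Of these 8, MBOAT2 and CCDC64 were higher in period 2 and DGAT2, SLC25A34, CHRNE, FGFR2, RND3 and ZNF613 lower. Over the 73 genes the median difference was -0.012 against 0.000044 over all genes, with 28 differences above and 45 below 0. For 67 of the 73 the 95% interval lay within 0.5 log2 units. A lower level in a biopsy can come from fewer cells of a type or from less RNA per cell, and these cannot be told apart in bulk tissue.

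**Figure D2:**
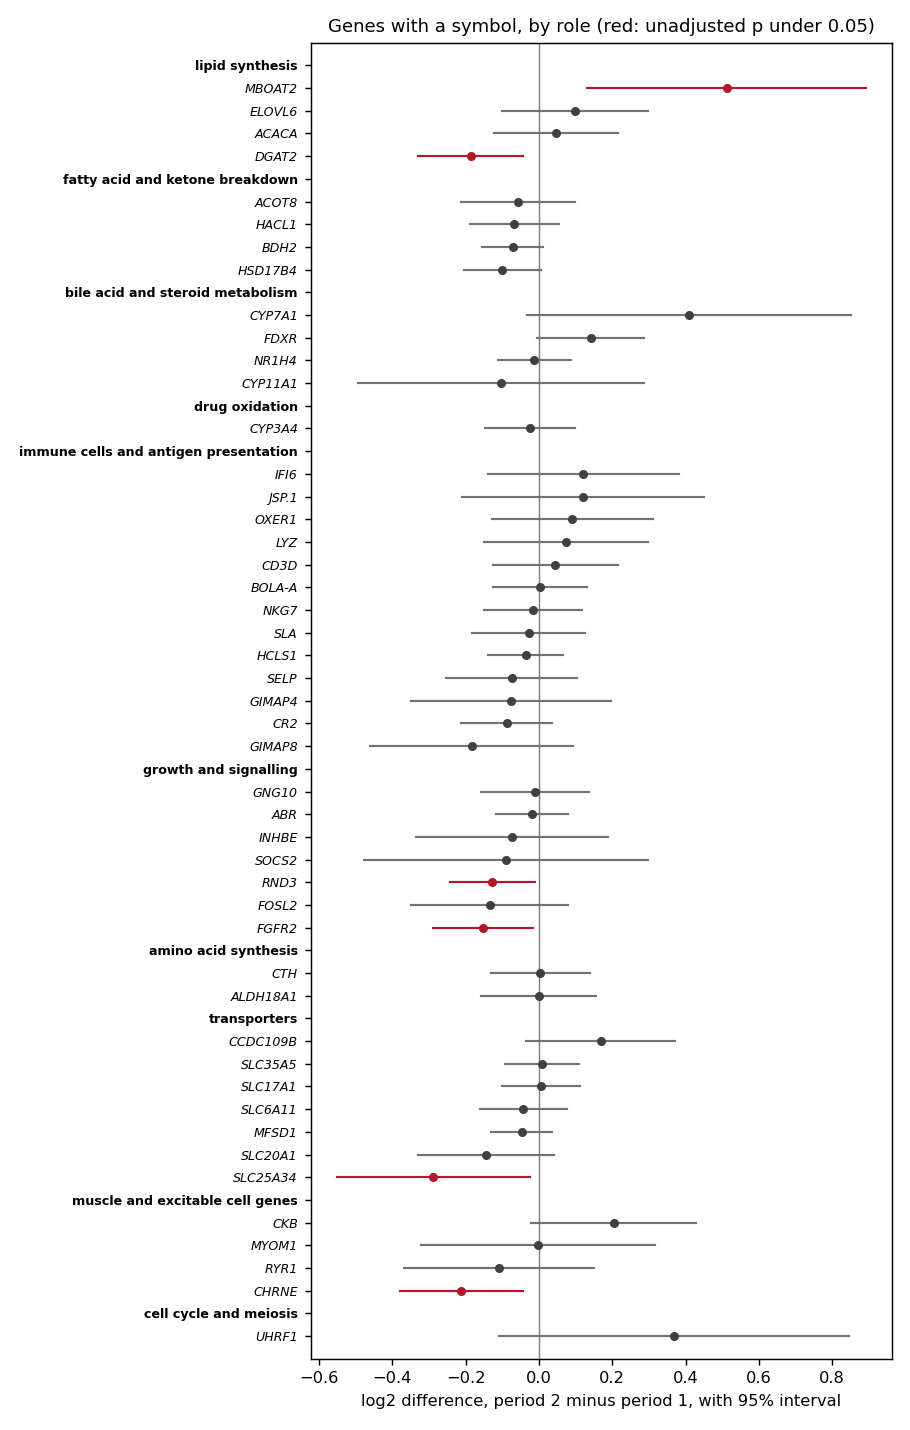
Log2 difference, period 2 minus period 1, with its 95% interval (x axis) for the genes with a symbol, grouped by role; red marks an unadjusted p under 0.05. MBOAT2 has the largest difference (+0.51). Every point of the breakdown and the growth groups lies below 0, as do 45 of all 73 genes with a symbol (61.6%).

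The genes of lipid synthesis held the largest difference of the 73. MBOAT2 (ENSBTAG00000008160), which attaches fatty acids to lysophospholipids, had 1.54, 7.85 and 47.8 CPM in period 1 and 2.19, 12.9 and 92.5 CPM in period 2. It was higher in period 2 in 9 of 9 C-first cows but in 2 of 10 HC-first cows. In the C-first cows, for which period 2 was the HC period, the within-cow difference was 1.58 ± 0.60 log2 units (SD), and in the HC-first cows it was -0.61 ± 1.08. The diet difference, HC minus C, was 1.06 (SE 0.18, edgeR adjusted p = 0.00105), while the period difference was 0.51 (SE 0.18, 95% interval 0.13 to 0.89, edgeR adjusted p = 0.888). Cow 7, with HC first, had the highest level of each period, 47.8 and 92.5 CPM.

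DGAT2 (ENSBTAG00000001154), the enzyme of the last step of triglyceride synthesis, had a diet difference of the other sign. Its levels were 16.7, 27.2 and 37.6 CPM in period 1 and 15.7, 23.3 and 36.2 CPM in period 2, which overlapped almost fully. It was lower in period 2 in 7 of 9 C-first cows and higher in 7 of 10 HC-first cows. The mean was 30.6 ± 5.08 CPM (SD, n = 9) on C in period 1 and 24.8 ± 5.53 (SD, n = 10) on C in period 2, while on HC it was 22.6 ± 4.54 and 22.2 ± 7.04. Period gave -0.19 (SE 0.069, edgeR adjusted p = 0.908) and diet -0.31 (SE 0.069, edgeR adjusted p = 0.00852).

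ELOVL6, which elongates long-chain fatty acids, was higher on HC by 0.47 (SE 0.096, edgeR adjusted p = 0.00465), and its period difference was 0.099 (95% interval -0.10 to 0.30). ACACA, the enzyme that commits acetyl-CoA to fatty acid synthesis, had a period difference of 0.047 (95% interval -0.12 to 0.22) and a diet difference of 0.077 (SE 0.082). Without cows 10 and 17 the period difference of ELOVL6 was 0.17 (edgeR unadjusted p = 0.0283, adjusted p = 0.959), and without cow 17 alone 0.18. Of these 4 genes, grouped after their symbols were known, 3 changed with the diet and 0 with the period, against 5.07% and 0% of all genes tested.

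**Figure D3:**
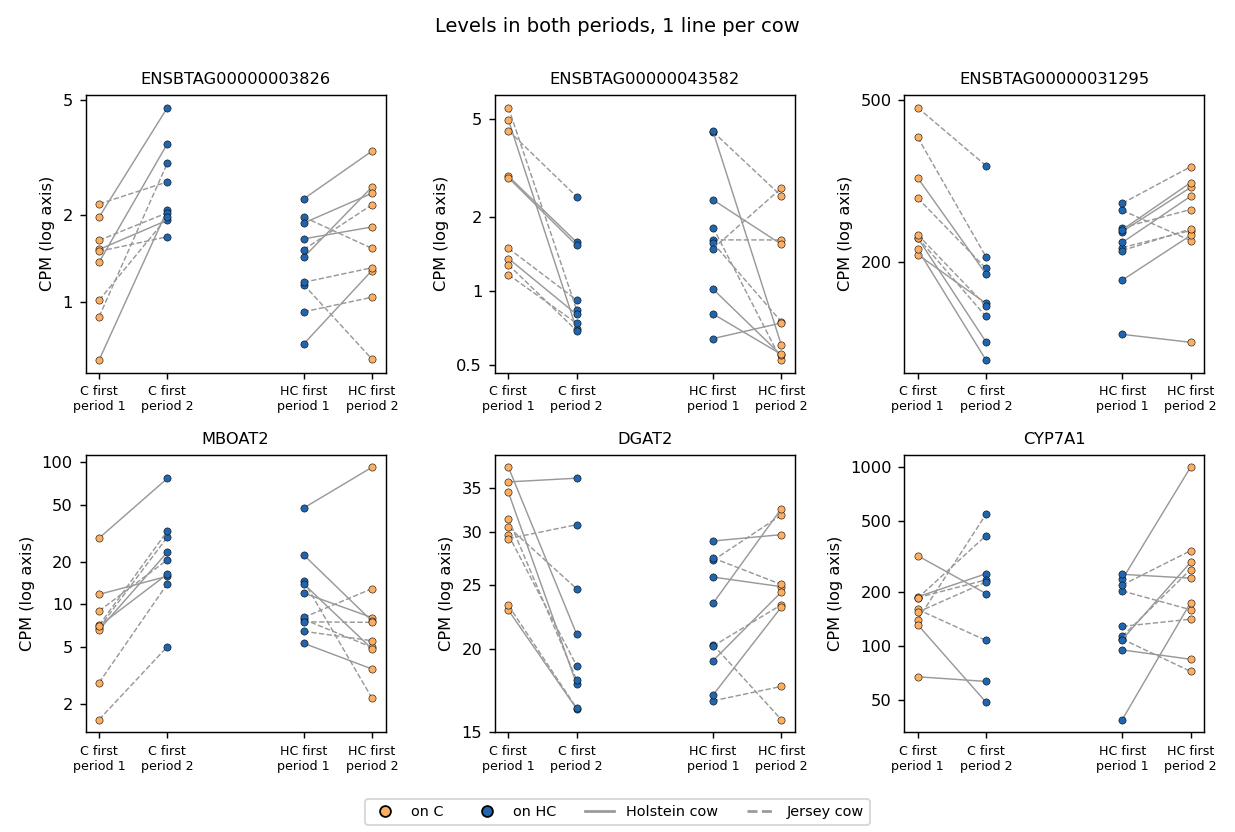
CPM (log axis) in periods 1 and 2, 1 line per cow, for 6 genes, with C-first cows on the left and HC-first cows on the right of each panel; orange points are on C, blue on HC, solid lines Holstein and dashed lines Jersey. ENSBTAG00000043582 is lower in period 2 in 17 of 19 cows in both orders, while the lines of ENSBTAG00000031295 and MBOAT2 change direction with the order of the diets.

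The 4 genes that break down fatty acids and ketones were grouped after their symbols were known. In the edgeR fit of both breeds their period differences were small, and every 95% interval included 0. HSD17B4, a peroxisomal enzyme of beta-oxidation, had 558, 890 and 1158 CPM in period 1 and 531, 823 and 993 CPM in period 2. Its difference was -0.10 (SE 0.051, 95% interval -0.21 to 0.0064) and it was lower in 12 of 19 cows. The exact permutation test gave p = 0.0262, not adjusted for the number of genes. In the Jerseys alone the difference was -0.17 (95% interval -0.33 to -0.0091, edgeR unadjusted p = 0.0399, adjusted p = 0.552), and in the Holsteins -0.036 (SE 0.062). HSD17B4 was higher in period 2 in 2 of 10 Jerseys and 5 of 9 Holsteins. BDH2, a hydroxybutyrate dehydrogenase, had a difference of -0.072 (SE 0.040), HACL1, which cleaves branched fatty acids in peroxisomes, -0.067 (SE 0.059), and ACOT8, a peroxisomal thioesterase, -0.057 (SE 0.075). Of the 4, 0 had an unadjusted p under 0.05 in the edgeR fit of both breeds, against 5.25% of all genes. All 4 differences were below 0, as were 45 of the 73 genes with a symbol (61.6%). Only ACOT8 changed with the diet, lower on HC by a log2 difference of -0.32 (edgeR adjusted p = 0.0117).

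CYP7A1 (ENSBTAG00000005287), the rate-limiting enzyme of bile acid synthesis, is made in hepatocytes and was present in every library. Of the 25 genes listed for bile acid synthesis and transport, 2 had a symbol, CYP7A1 and NR1H4. The other defining hepatocyte markers could not be looked up. Levels of CYP7A1 were 38.9, 155 and 320.3 CPM in period 1. In period 2 they were 48.7, 228 and 1000.0 CPM, with the highest in cow 7. CYP7A1 was higher in period 2 in 11 of 19 cows, 5 of 9 with C first and 6 of 10 with HC first. The difference of 0.41 was imprecise (SE 0.21, 95% interval -0.031 to 0.85, edgeR adjusted p = 0.914; exact permutation p = 0.0853). NR1H4, the bile acid receptor that restrains CYP7A1, was measured tightly, with a difference of -0.012 (95% interval -0.11 to 0.087). FDXR, the reductase that passes electrons by way of ferredoxin to a mitochondrial cytochrome P450, had 0.14 (SE 0.070). CYP11A1, which cleaves the side chain of cholesterol, had -0.10 (SE 0.19). For CYP3A4, the main drug-oxidising cytochrome P450, the difference was -0.025 (SE 0.059).

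The 7 genes of growth and signalling, a group formed after their symbols were known, had differences from -0.15 to -0.010. All 7 were below 0, as were 45 of the 73 genes (61.6%) and 49.98% of all genes, and 2 had an unadjusted p under 0.05, against 5.25% of all genes. FGFR2 (ENSBTAG00000014064), a fibroblast growth factor receptor, had 57.5, 85.4 and 129.9 CPM in period 1 and 43.3, 76.4 and 104 CPM in period 2, and was lower in 13 of 19 cows. The difference was -0.15 (SE 0.066, edgeR adjusted p = 0.913), -0.057 among Holsteins and -0.23 among Jerseys. RND3 (ENSBTAG00000039731), a small GTPase that loosens actin fibres, was lower in 9 of 9 C-first cows and higher in 8 of 10 HC-first cows, at -0.13 (SE 0.055, edgeR adjusted p = 0.913) for period and -0.23 (SE 0.055, edgeR adjusted p = 0.0141) for diet. SOCS2, an inhibitor of growth hormone signalling, was among the least precise, at -0.090 (95% interval -0.48 to 0.30). Its levels spanned 15.7 to 119 CPM in period 1 and 4.0 to 75.9 CPM in period 2. FOSL2, a subunit of the AP-1 transcription factor, had -0.13 (SE 0.10). The signs of the breeds matched in 3 of these 7 genes.

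The 13 genes of immune cells and antigen presentation gave no difference with an unadjusted p under 0.05, and 6 were above and 7 below 0. The group median was -0.016 and every 95% interval lay within 0.5 log2 units of 0. The largest difference was that of GIMAP8, a GTPase of lymphocytes, at -0.18 (SE 0.13, 95% interval -0.46 to 0.093). It was -0.22 without cows 10 and 17 (edgeR unadjusted p = 0.0125, adjusted p = 0.959) and -0.25 in the Holsteins alone (edgeR unadjusted p = 0.0369). CD3D, a subunit of the T cell receptor complex, was 3.45 CPM (median) in period 1 and 3.74 CPM in period 2, at +0.045 (SE 0.082). NKG7, a granule protein of cytotoxic lymphocytes, was 9.99 and 9.90 CPM, at -0.016 (SE 0.064), and HCLS1, a blood cell actin regulator, 21.7 and 21.8 CPM, at -0.036 (SE 0.050). IFI6, an interferon-induced gene, had +0.12 (SE 0.13), and BOLA-A, a class I histocompatibility gene, +0.0024 (SE 0.062). The counts of BOLA-A and of the related gene JSP.1 (+0.12, SE 0.16) are uncertain, since near-identical copies can share reads.

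Among the transporters, SLC25A34 (ENSBTAG00000018723), a mitochondrial carrier, had the largest difference below 0 of the 73 genes. It had 1.70, 4.58 and 12.6 CPM in period 1 and 1.595, 3.63 and 11.01 CPM in period 2. All 9 C-first cows were lower and 8 of 10 HC-first cows higher in period 2, and the diet difference of -0.76 (SE 0.13, edgeR adjusted p = 0.000809) was larger in size than that of the period, -0.29 (SE 0.13, edgeR adjusted p = 0.913). The other 6 transporters lay between -0.14 (SLC20A1, a phosphate transporter) and 0.17 (CCDC109B, which modulates the mitochondrial calcium channel). SLC20A1 and SLC6A11, a GABA transporter, were lower on HC (edgeR adjusted p = 0.0142 and 0.0364).

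CHRNE (ENSBTAG00000004908), a subunit of the muscle acetylcholine receptor, separated cows rather than periods. Cows 1, 4, 11, 16 and 19 had 20.5 to 26.8 CPM in period 1 and 11.5 to 25.7 CPM in period 2, while the other cows had 3.43 to 5.67 CPM in period 1 and 3.01 to 4.98 CPM in period 2, with no overlap in either period. The period difference was -0.21 (SE 0.081, edgeR adjusted p = 0.908), from -0.059 among Holsteins and -0.37 among Jerseys. Of the other muscle and excitable cell genes, CKB, a creatine kinase, had +0.20 (SE 0.11), RYR1, the calcium release channel of muscle, -0.11 (SE 0.12), and MYOM1, a sarcomere protein, -0.0030 (SE 0.15).

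CCDC64 (ENSBTAG00000003696) had the smallest p of the 73 and lay near the limit of the filter. Its levels were 1.15, 1.70 and 3.02 CPM in period 1 and 1.02, 2.08 and 5.18 CPM in period 2. It was higher in period 2 in 13 of 19 cows, 8 of 9 Holsteins and 5 of 10 Jerseys, at +0.34 (SE 0.10, edgeR adjusted p = 0.888), with a diet difference of 0.14 (SE 0.10). ZNF613, a zinc finger gene, was lower in 14 of 19 cows, at -0.17 (SE 0.060, edgeR adjusted p = 0.888). The genes of amino acid synthesis were the flattest. CTH, of the cysteine pathway, had +0.0042 (95% interval -0.13 to 0.14), and ALDH18A1, of the proline pathway, -0.00085 (95% interval -0.16 to 0.16). UHRF1, which maintains DNA methylation in dividing cells, was higher in 14 of 19 cows, but with an imprecise difference of +0.37 (95% interval -0.11 to 0.85).

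**Figure D4:**
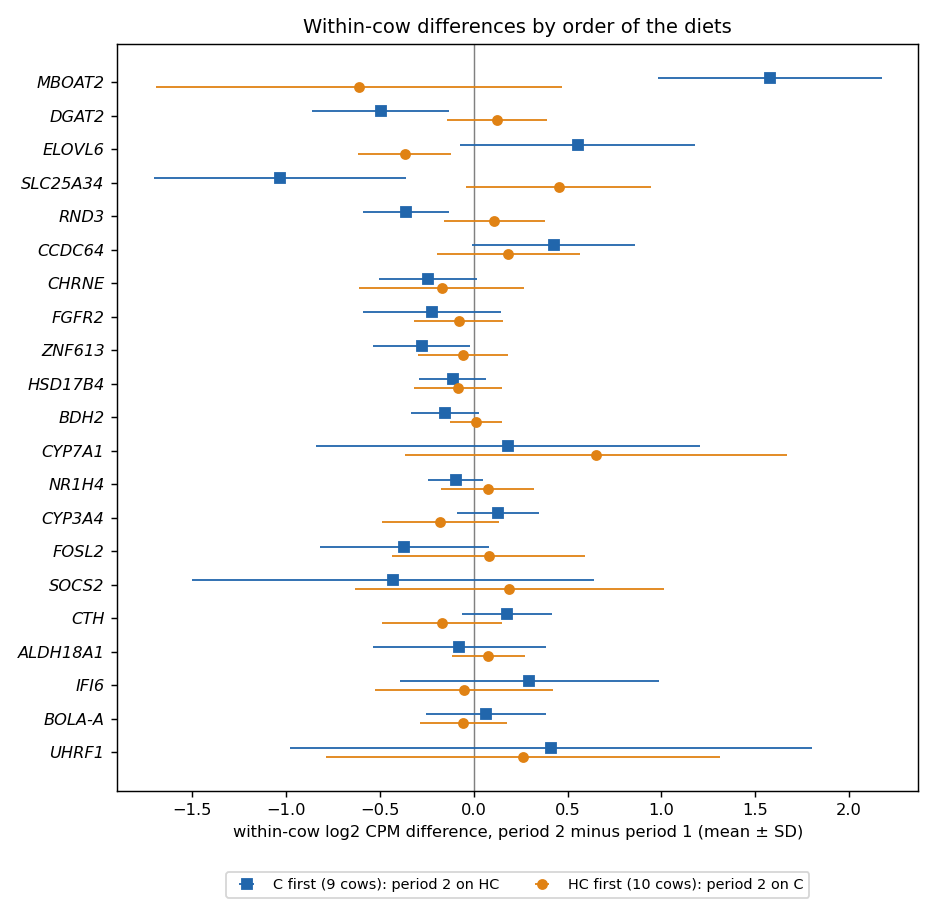
Mean within-cow log2 CPM difference, period 2 minus period 1, ± SD for the 9 C-first cows (blue squares) and the 10 HC-first cows (orange circles) in 21 genes. MBOAT2, DGAT2, ELOVL6, SLC25A34 and RND3 lie on opposite sides of 0 in the 2 orders, and CCDC64, CHRNE, FGFR2 and ZNF613 on the same side.

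By the order of the diets, the 8 genes with a low unadjusted p can be set in 2 groups. The grouping restates whether the diet or the period difference of a gene was the larger, and is no separate result. For MBOAT2, DGAT2, SLC25A34 and RND3 the direction inside a cow depended on which diet came second, and the diet change passed the test. For CCDC64, CHRNE, FGFR2 and ZNF613 both orders had the same mean sign, and the diet change did not pass (edgeR adjusted p from 0.333 to 0.887). Of the 73 genes, 12 (16.4%) changed with the diet, against 5.07% of all genes. Across all 11896 genes the mean within-cow differences of the 2 orders had opposite signs more often than not, with 38.8% of the same sign (Pearson's r -0.43, Spearman's rho -0.33, across genes, which are not independent replicates).

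The period differences of the breeds were not alike across genes. Fitted alone, the Holsteins had 0 genes and the Jerseys 0 genes at an adjusted p under 0.05 (smallest 0.0519 and 0.412, edgeR), with 370 (3.11%) and 1053 (8.85%) at an unadjusted p under 0.05. By DESeq2, 16 Holstein and 35 Jersey genes were called. Without cow 16, edgeR called 6 genes in the Holsteins and 1073 had an unadjusted p under 0.05, and without cow 7 it called 2. Without cow 13 it called 1 gene in the Jerseys, and without cow 5 their unadjusted count was 697. Holsteins had a median absolute difference of 0.053 and Jerseys of 0.078, with median standard errors of 0.091 and 0.089. Across the 11896 genes the differences of the breeds had r = -0.14 and rho = -0.028, and 49.5% had the same sign. The 59 genes at an unadjusted p under 0.05 in both breeds are 15.9% of the Holstein and 5.60% of the Jersey genes, and 16 of them had the same sign and 43 the opposite one. From mean within-cow differences r was -0.13 and rho -0.023 with all cows, r -0.081 and rho 0.020 without cow 5, and r -0.076 and rho -0.021 without cows 10 and 17. The share of same signs was between 49.2% and 50.98% without cow 5, 14 or 16, or without cows 10 and 17.

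**Figure D5:**
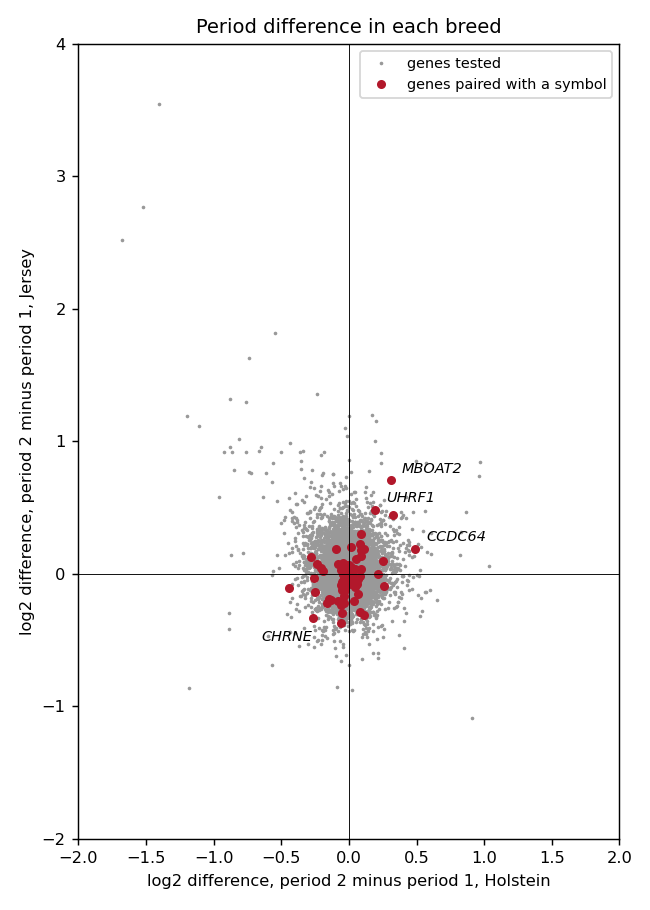
Log2 difference, period 2 minus period 1, in the Holsteins (x axis) and the Jerseys (y axis) for the 11896 genes (grey) and the 73 genes with a symbol (red). The cloud has no slope upwards to the right, and a few genes extend to the upper left, higher in period 2 in the Jerseys and lower in the Holsteins.

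A test of the difference between the breeds called no gene (edgeR, smallest adjusted p 0.214), with 687 genes (5.78%) at an unadjusted p under 0.05, and DESeq2 called 22. ENSBTAG00000008952 had the smallest p. Its difference was -0.61 (SE 0.12) among Holsteins and 0.77 (SE 0.20) among Jerseys, higher in period 2 in 1 of 9 and 8 of 10 cows. ENSBTAG00000010073 was -0.43 (SE 0.080) and 0.48 (SE 0.14), higher in 2 of 9 and 8 of 10 cows. In 9 genes the breeds differed by more than 2 log2 units, and in all 9 the Jersey difference was the higher one. These genes had edgeR adjusted p between 0.387 and 0.866 for the breed difference and no symbol, and DESeq2 called 3 of them. The largest within-cow increase came from an HC-first Jersey in 8 of the 9, in 4 of them cow 10, whose libraries resembled those of cow 17. The largest decrease came from an HC-first Holstein in 9 of 9. HC came first in 5 of 10 Jerseys and 5 of 9 Holsteins. The 9 genes were picked by the breed difference, so the breeds of these extremes follow from the selection. The same few cows recur, so the genes are not independent.

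In the Holsteins, ENSBTAG00000016284 came nearest to the threshold. It was lower in period 2 in 9 of 9 cows, at -0.53 (SE 0.074, edgeR adjusted p = 0.0519), and was 0.14 (SE 0.17) in the Jerseys. It passed in the Holsteins by DESeq2 (adjusted p = 0.00107), and in edgeR without cow 16 (adjusted p = 0.0433) and with each library's percentage of assigned read pairs as a further term (adjusted p = 0.0344). In the Jerseys, the gene with the smallest p was ENSBTAG00000031863, at -0.62 (SE 0.11, edgeR adjusted p = 0.412) and higher in 2 of 10 cows, which also fell on HC in the fit of both breeds by 0.77 on the log2 scale (edgeR adjusted p = 0.000775). Of the 73 genes with a symbol, 42 (57.5%) had the same sign in both breeds, against 49.5% of all genes.

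Without cows 10 and 17 the result over both breeds was of the same kind. No gene passed (smallest adjusted p 0.302, edgeR), and 573 (4.82%) had an unadjusted p under 0.05, 275 higher and 298 lower in period 2. MBOAT2 was 0.60, DGAT2 -0.23, CYP7A1 0.35, CCDC64 0.37 and ENSBTAG00000043582 -1.07 on the log2 scale without them. ELOVL6, at 0.17 as given above, moved by over 1.5 times. In the Jerseys alone, 933 genes (7.84%) had an unadjusted p under 0.05 in edgeR without cows 10 and 17. In the edgeR test of the breed difference without them there were 675 (5.67%).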

How the data were processed

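Liver biopsies of 19 cows gave 38 libraries made with a stranded mRNA kit, sequenced in a single run. The authors removed adapters with cutadapt, aligned read pairs with STAR 2.3.0 to UMD3.1 with Ensembl annotation, and deposited raw counts of read pairs per gene from HTSeq-count. Its version and strandedness setting are not given in the sources used here. Rows that name no gene held 23.8% of the read pairs and were left out.

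Genes with at least 1 CPM in at least 19 libraries were tested in R 4.3.3 with edgeR 4.0.16 (TMM, quasi-likelihood F-test, two-sided) with cow, diet and period in the model, Benjamini-Hochberg adjustment over all genes and a threshold of 0.05. Standard errors are the absolute log2 fold change over the square root of F, and log2 CPM used a prior count of 2. The cow is the replicate block of the main fit, and the pairing comes from the animal numbers in the labels. Libraries of a cow correlated by a mean of 0.37 in Holsteins and 0.27 in Jerseys after removing the mean of each breed and period. The diet was not removed for these correlations. Exact permutation tests compared the HC minus C differences of the 2 orders within breeds. The period came from the study's table of cows. The p-values of the main fit and of the exact tests rest on how the within-cow differences vary from cow to cow. The fit without a replicate block treats the 38 libraries as independent.

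The comparison and the gene lists were chosen with earlier results of these data known. Genes named were, for each list, the 2 with the smallest p among those with a symbol, for the breed difference the 2 with the smallest p, and, chosen after their values were seen, those with a symbol at an unadjusted p under 0.05, the genes with the smallest p in each direction and breed, and the other members of each role group. Role groups were formed after it was seen which genes had symbols. Of 33 lists none had 80% of its members paired with an identifier (at most 13.6%), so no list was described as a set, and hepatocyte and other cell type markers were not checked. The annotation table given names another assembly and matched no identifier, so no coordinates are printed. Alternatives were DESeq2 1.42.0, limma 3.58.1, other filters and terms, and each cow left out.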

Additional observations from a re-analysis of the deposited data

Results flagged for a closer look

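A value was singled out where the highest or lowest cow of a breed and period stood far from the others by Dixon's criterion. This happened in 16 of 124 groups (12.9%). The criterion's level of about 1 in 20 holds for independent, normally distributed values. The groups share cows and libraries, and CPM values were not checked for their distribution, so no share expected by chance can be given. No gene's period effect differed between the breeds by the edgeR test of the difference.

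Cow 16 stood apart among the Holsteins of period 2 with 79.9% of read pairs on genes (others 74.9% to 75.9%) and 11540 genes at 1 CPM (others 11894 to 12038). Cow 7 had 1000.0 CPM of CYP7A1 in period 2, with the other Holsteins between 48.7 and 294 CPM. In Holstein period 1, cow 2 had 119 CPM of SOCS2 (others 15.7 to 61.6 CPM), cow 19 had 21.3 CPM of CTH (others 6.87 to 13.8 CPM) and cow 1 had 129.9 CPM of FGFR2 (others 57.5 to 93.4 CPM).

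Cow 4 was the Jersey with high CHRNE in both periods, at 21.5 CPM in period 1 (others 3.90 to 5.67 CPM) and 11.5 CPM in period 2 (others 3.01 to 4.59 CPM), and had 3.02 CPM of CCDC64 in period 1 (others 1.15 to 1.80 CPM). Cow 5 had 1158 CPM of HSD17B4 in period 1 (others 890.0 to 996 CPM) and 111 CPM of NR1H4 in period 2 (others 50.8 to 79.8 CPM). Cow 17 had 37.4 CPM of ALDH18A1 in period 1 (others 19.4 to 27.7 CPM). Cow 3 had 8.997 CPM of ENSBTAG00000008952 in period 1 (others 3.81 to 5.77 CPM). In period 2, cow 14 had 29.7 CPM of IFI6 (others 5.74 to 11.6 CPM) and 6.54 CPM of ENSBTAG00000026278 (others 0.961 to 3.32 CPM), and cow 18 had 11.01 CPM of SLC25A34 (others 2.38 to 6.31 CPM).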

How the results depend on the processing

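Over both breeds no gene passed under any edgeR or limma setting planned, including DESeq2's size factors, no filter, 1 CPM in all libraries, no diet term, diet by breed, the assigned share (the percentage of read pairs on genes) as a further term and each cow left out (0 to 0 genes). DESeq2's Wald test called 2, and leaving out cow 16 with the assigned share added, chosen after seeing the data, called 4 (2 higher and 2 lower in period 2). The count at an unadjusted p under 0.05 ran from 470 (without cow 14) to 1777 (without cow 16, assigned share added), and was 998 with the assigned share and 976 without cow 16. Without the replicate block it was 494, with 0 calls, and with a random replicate block in limma-voom 632, also with 0. In the Holsteins leaving out a cow gave 0 to 6 calls, 2 without cow 7 and 6 without cow 16 (2 higher and 4 lower); the assigned share gave 11 and DESeq2 16. In the Jerseys it gave 0 to 1, 1 without cow 13, and DESeq2 35. For the breed difference DESeq2 gave 22 and limma 0. The causes were not tested.

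Of the 73 genes with a symbol, 21 were run through the alternatives, of which 15 kept their sign in all of them and 0 passed in any (smallest adjusted p 0.0878). The other 6 changed sign under at least 1. On the log2 scale CTH was -0.00035 with no replicate block, -0.0033 with no diet term, -0.015 without cow 16 and -0.017 with the assigned share added to that, and -0.027 to 0.034 with cows left out. ALDH18A1 was 0.0011 with 1 CPM in all libraries, 0.0044 with no diet term, 0.011 with diet by breed, 0.042 without cows 10 and 17, 0.0028 with the assigned share, 0.00019 in DESeq2, 0.030 without cows 10, 16 and 17, and -0.037 to 0.049 with cows left out. BOLA-A was -0.00082 with no diet term, -0.011 without cow 16, -0.0079 without cows 10, 16 and 17, and -0.030 to 0.025 with cows left out. Without cow 16 and with the assigned share, NR1H4 was 0.022 and FOSL2 0.035, and with a cow left out NR1H4 was -0.044 to 0.0030 and SOCS2 -0.17 to 0.023.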

Other observations

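Of the 4 genes with a symbol that fell below the filter, the meiotic cohesin gene REC8 had the widest range, 0.0537 to 35.0 CPM in period 1 and 0.0503 to 92.2 CPM in period 2, with medians of 0.353 and 0.409 CPM, and reached 1 CPM in 12 of 38 libraries. RASEF had medians of 0.852 and 1.01 CPM, TMEM102 0.647 and 0.528 CPM and C19orf81 0.586 and 0.630 CPM.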
